A study of Homo sapiens with 12 samples.

Results

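*FOXO1*, *FOXO3* and *FOXO4* encode forkhead box O transcription factors, and every probe set annotated with exactly 1 of these gene symbols was taken, which gave 3 of 19775 gene symbols and 8 of the 54675 probe sets on the Affymetrix array type U133 Plus 2.0. *FOXO1* (chromosome 13) has 3 of them, *FOXO3* (chromosome 6) has 4 and *FOXO4* (chromosome X) has 1. Another 3 probe sets are annotated with both *FOXO3* and its near-identical copy *FOXO3B* and were not taken, and RNA of that copy could also reach the *FOXO3* probe sets, which was not tested. RNA came from 4 established synovial sarcoma (SS) cell lines kept for 24 h with ZSTK474, a pan-PI3K inhibitor, at 3 or 0.3 µM, or with vehicle (0 µM). All lines carry an SS18-SSX fusion, SS18-SSX1 in Aska-SS and Yamato-SS and SS18-SSX2 in SYO-1 and Fuji. Each line and dose was hybridised to 1 array, 12 in all, so that the 4 lines are the replicates of a dose. Precision is limited by the number of arrays. The p-values between doses carry the spread between lines and not that between cultures of 1 line.

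FOXO factors bind DNA through their forkhead domain and switch on genes of cell cycle arrest, cell death, stress defence and metabolism. When PI3K is active, the kinase Akt phosphorylates them, 14-3-3 proteins hold the phosphorylated factors in the cytoplasm, and they leave the nucleus; when PI3K is blocked they return to it. This control acts on the proteins, whereas the arrays measured their RNA. In these bulk cultures, a change in RNA per cell and a change in which cells gave the RNA cannot be told apart.

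The 250 bases before the first annotated start of each gene are shown because the RNA of all 3 genes was higher with the inhibitor in most lines. The arrays do not show which start was used, and *FOXO3* has 4 annotated starts. They were read 5′ to 3′ on the gene's strand from RefSeq promoter windows of GRCh38.p14, where all 3 genes matched by symbol. Capitals mark GGGCGG, the GC box bound by Sp1 family factors, on either strand (CCGCCC on the other). The whole windows, which run past the start, were also searched on both strands for GTAAACA and ATAAACA, core motifs of forkhead factors, which do not overlap with the GC box, and the stretches shown hold neither.
FOXO1, chr13:40666642-40666891, minus strand: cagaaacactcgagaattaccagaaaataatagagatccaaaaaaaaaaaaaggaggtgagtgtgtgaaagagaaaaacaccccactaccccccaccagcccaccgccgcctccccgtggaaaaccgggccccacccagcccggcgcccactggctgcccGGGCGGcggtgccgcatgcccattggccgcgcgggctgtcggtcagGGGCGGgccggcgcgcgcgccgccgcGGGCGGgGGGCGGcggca
FOXO3, chr6:108559575-108559824, plus strand: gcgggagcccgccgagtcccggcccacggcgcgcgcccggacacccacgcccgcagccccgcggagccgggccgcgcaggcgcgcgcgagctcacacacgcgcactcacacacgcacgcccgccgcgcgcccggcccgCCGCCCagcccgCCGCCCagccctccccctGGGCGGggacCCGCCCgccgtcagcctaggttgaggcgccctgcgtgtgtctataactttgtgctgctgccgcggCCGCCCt
FOXO4, chrX:71095601-71095850, plus strand: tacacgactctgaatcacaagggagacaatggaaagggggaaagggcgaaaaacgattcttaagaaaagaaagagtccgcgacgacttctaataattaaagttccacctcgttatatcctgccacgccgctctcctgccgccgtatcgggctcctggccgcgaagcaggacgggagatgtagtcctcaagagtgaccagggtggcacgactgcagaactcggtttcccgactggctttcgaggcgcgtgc
The GC box occurred 4 times in the *FOXO1* stretch, 5 times in that of *FOXO3* and 0 times in that of *FOXO4*. Of 35116 RefSeq windows of 300 bases (250 before and 50 after a start), 45% hold it. The G and C content was 68% in the *FOXO1* window, 78.3% in that of *FOXO3* and 56.3% in that of *FOXO4*, with a median of 58.7% over all windows.

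A forkhead motif was found in 2 windows of the genes, outside those stretches, shown here with 11 bases on each side and the motif in capitals. In *FOXO4* it was GTAAACA, which 3.42% of all windows hold, with its first base at +24 from the start. In *FOXO3* it was ATAAACA, which 4.24% of all windows hold, with its first base at -234 from the second annotated start.
FOXO4, chrX:71095863-71095891, plus strand: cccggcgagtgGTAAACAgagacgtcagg
FOXO3, chr6:108560672-108560700, plus strand: ccgagcgaaacATAAACAaacgcacgcac
These matches describe letters and not binding.

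On 6 of the 8 probe sets, all of *FOXO1* or *FOXO3*, the signal with 3 µM exceeded that with 0 µM in each of the 4 lines, by 1.95-fold to 2.92-fold in the fit. *FOXO4* RNA was higher in 3 of 4 lines on its only probe set, which was too dim for the main test. A probe set was tested when its mean log2 signal lay above 6.03, the median of all probe sets, and 6 of the 8 did (2 of *FOXO1* and all 4 of *FOXO3*). All 6 rose at 3 µM against 0 µM (limma with cell line as a block, Benjamini-Hochberg adjusted p of 2.73e-05 to 0.00278), where 19.6% of all 27306 probe sets tested rose. At 0.3 µM against 0 µM, 4 of the 6 rose, with 3.08% of all probe sets. At 3 µM against 0.3 µM, 4 of the 6 rose, with 4.98% of all probe sets, and these were the 4 of *FOXO3*. Every call of both smaller steps was lost without at least 1 of the lines. Those of *FOXO1* 202724_s_at and 202723_s_at and of *FOXO3* 224889_at at 0.3 against 0 µM were lost without any 1 line (limma adjusted p of 0.0521 to 0.207), and that of *FOXO3* 224891_at without Aska-SS, SYO-1 or Fuji (limma adjusted p of 0.0551 to 0.109). At 3 against 0.3 µM, those of *FOXO3* 204131_s_at, 224889_at and 231548_at were lost without any 1 line (limma adjusted p of 0.0517 to 0.140). That of *FOXO3* 224891_at was lost only without SYO-1 (limma adjusted p = 0.0796). At 3 against 0 µM all 6 calls held without each line in turn, and 4 of the 6 were lost without the block by cell line, those of *FOXO3* 224891_at and 224889_at being kept (limma adjusted p of 0.0355 and 0.0447).

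**Figure D1:**
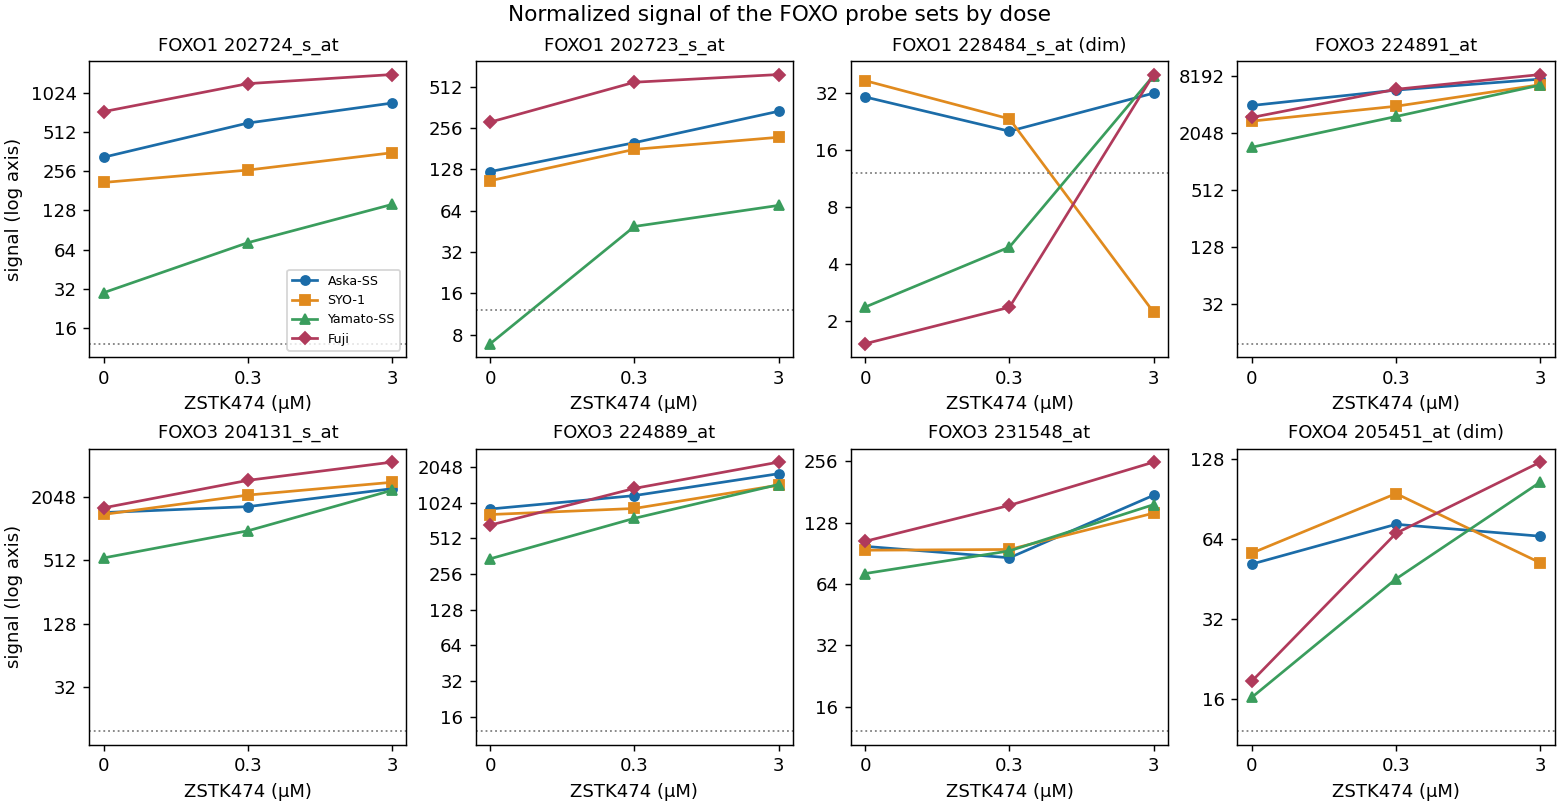
Normalized signal (log axis, each panel with its own scale) of the 8 probe sets at 0, 0.3 and 3 µM ZSTK474, with 1 line per cell line and the floor of 12.1 dotted. The 4 *FOXO3* probe sets and the 2 brighter ones of *FOXO1* end higher than they start in all 4 lines, while 228484_s_at and *FOXO4* 205451_at, marked dim, cross between lines.

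*FOXO3*, the family member best known for driving the death gene *BCL2L11*, had the brightest probe set, 224891_at, whose mean signal exceeded that of 96.7% of all probe sets. Signals are given as quantile-normalized MAS5 intensities at 0, 0.3 and 3 µM in that order. On 224891_at they were 4029, 5861 and 7656 in Aska-SS, 2753, 3955 and 6681 in SYO-1, 1456, 3081 and 6625 in Yamato-SS, and 3011, 5978 and 8567 in Fuji. The lowest signal at 3 µM, 6625 in Yamato-SS, lay above the highest at 0 µM, 4029 in Aska-SS, so those doses did not overlap. How common such a separation is among all probe sets was not counted. Over the 4 lines the log2 level averaged 11.37 ± 0.62 at 0 µM, 12.15 ± 0.46 at 0.3 µM and 12.84 ± 0.18 at 3 µM (SD, n = 4 each). The lines thus stood closest together at 3 µM, which was not tested. The log2 change at 3 against 0 µM was 1.47 (SE 0.15, limma adjusted p = 2.73e-05), and 0.883% of probe sets changed by more. At 0.3 against 0 µM it was 0.78 (SE 0.15, limma adjusted p = 0.0189), and at 3 against 0.3 µM 0.69 (limma adjusted p = 0.0139, and 0.0796 without SYO-1).

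The other *FOXO3* probe sets gave nearly the same picture at 3 µM. On 204131_s_at the signals at the 3 doses were 1457, 1660 and 2457 in Aska-SS, 1400, 2138 and 2828 in SYO-1, 540, 977 and 2373 in Yamato-SS, and 1617, 2952 and 4400 in Fuji. All 4 lines rose at each step, and the values at 3 µM lay above all those at 0 µM. Its log2 change was 1.34 (SE 0.18, limma adjusted p = 0.000122) at 3 against 0 µM. At 0.3 against 0 µM it was 0.63 (95% interval 0.25 to 1.01, limma adjusted p = 0.0580), which missed the threshold. On 224889_at the signals were 906, 1175 and 1796 in Aska-SS, 813, 915 and 1439 in SYO-1, 345, 756 and 1455 in Yamato-SS, and 663, 1351 and 2250 in Fuji. Here too 3 and 0 µM did not overlap. The log2 changes were 1.41 (SE 0.18, limma adjusted p = 0.000101) at 3 against 0 µM and 0.68 (limma adjusted p = 0.0496) at 0.3 against 0 µM.

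The dimmest *FOXO3* probe set, 231548_at, was the only one of the 4 that did not move at the first step in every line. Its signals were 97.9, 86.1 and 174 in Aska-SS, 93.8, 94.5 and 143 in SYO-1, 72.0, 93.0 and 157 in Yamato-SS, and 104, 156 and 254 in Fuji. Aska-SS was lower at 0.3 µM than at 0 µM and SYO-1 was level, whereas all 4 lines were higher at 3 µM than at either other dose. The log2 change was 0.20 (95% interval -0.25 to 0.64, limma adjusted p = 0.603) at 0.3 against 0 µM, 0.77 (limma adjusted p = 0.0325) at 3 against 0.3 µM and 0.96 (SE 0.21, limma adjusted p = 0.00278) at 3 against 0 µM.

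*FOXO1*, the factor best known for insulin-regulated metabolism and the partner of *PAX3* in alveolar rhabdomyosarcoma, differed most between the lines. On 202724_s_at, its brightest probe set, the signals at 0, 0.3 and 3 µM were 329, 602 and 857 in Aska-SS, 210, 262 and 356 in SYO-1, 29.9, 72.4 and 142 in Yamato-SS, and 737, 1209 and 1420 in Fuji. Fuji was the highest line and Yamato-SS the lowest at every dose, and the signal of SYO-1 at 3 µM lay under that of Fuji at 0 µM, so the doses overlapped between lines although every line rose at each step. Within lines the log2 change at 3 against 0 µM was 1.38 in Aska-SS, 2.25 in Yamato-SS, 0.76 in SYO-1 and 0.95 in Fuji. The fitted change was 1.34 (SE 0.20, limma adjusted p = 0.000328). Without the block by cell line, its adjusted p was 0.624. At 0.3 against 0 µM the change was 0.79 (limma adjusted p = 0.0447), and at 3 against 0.3 µM it was 0.54 (95% interval 0.10 to 0.98, limma adjusted p = 0.110), which missed the threshold.

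The second *FOXO1* probe set, 202723_s_at, gave signals of 124, 201 and 340 in Aska-SS, 106, 179 and 220 in SYO-1, 6.88, 49.2 and 70.0 in Yamato-SS, and 283, 553 and 629 in Fuji. Yamato-SS at 0 µM was the single value under the floor of 12.1, to which it was raised, so that its change of 2.53 at 3 µM is an understatement of the measured signals. The log2 change was 1.55 (SE 0.25, limma adjusted p = 0.000452) at 3 against 0 µM, 1.11 (limma adjusted p = 0.0293) at 0.3 against 0 µM and 0.44 (95% interval -0.10 to 0.98, limma adjusted p = 0.289) at 3 against 0.3 µM. The third, 228484_s_at, was dim, with 5 of its 12 values under the floor, and was not tested. Its signals were 30.4, 20.1 and 31.9 in Aska-SS, 37.1, 23.3 and 2.23 in SYO-1, 2.38, 4.93 and 39.4 in Yamato-SS, and 1.52, 2.37 and 39.9 in Fuji. At 3 against 0 µM it was higher in 3 lines and lower in SYO-1, with a mean log2 change of 0.47 ± 1.59 (SD, n = 4). This mean was 1.16 without SYO-1, 0.059 without Yamato-SS, 0.053 without Fuji and 0 with the floor at the 40th percentile.

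*FOXO4*, the X-linked member, had a mean signal above that of 47.1% of all probe sets, just under the filter. On 205451_at the signals at 0, 0.3 and 3 µM were 51.4, 72.5 and 65.5 in Aska-SS, 56.6, 94.6 and 52.0 in SYO-1, 16.2, 45.2 and 104 in Yamato-SS, and 18.7, 67.1 and 124 in Fuji. Yamato-SS and Fuji, the lowest lines at 0 µM, were the highest at 3 µM, while Aska-SS and SYO-1 had their highest signal at 0.3 µM. The log2 change at 3 against 0 µM was 2.68 in Yamato-SS, 2.73 in Fuji, 0.35 in Aska-SS and -0.12 in SYO-1, with a mean of 1.41 ± 1.51 (SD, n = 4). In a fit without the filter its 95% interval was 0.20 to 2.62 and the limma adjusted p was 0.120, where 8.05% of all 54613 probe sets rose. At 0.3 against 0 µM it was higher in 4 of 4 lines, with a mean of 1.14 ± 0.63 (SD, n = 4) and a limma adjusted p of 0.359 without the filter, where 0.0110% of all probe sets rose. With the floor at the 40th percentile the means were 0.77 at 3 µM and 0.50 at 0.3 µM. The *FOXO4* window above holds GTAAACA and 0 GC boxes, and the *FOXO1* window holds 5 GC boxes. The windows of the 4 annotated *FOXO3* starts, in order along the gene, hold 5, 4, 4 and 0 GC boxes. A window without a GC box is thus not particular to *FOXO4*, and a link between these motifs and the dose response was not tested.

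**Figure D2:**
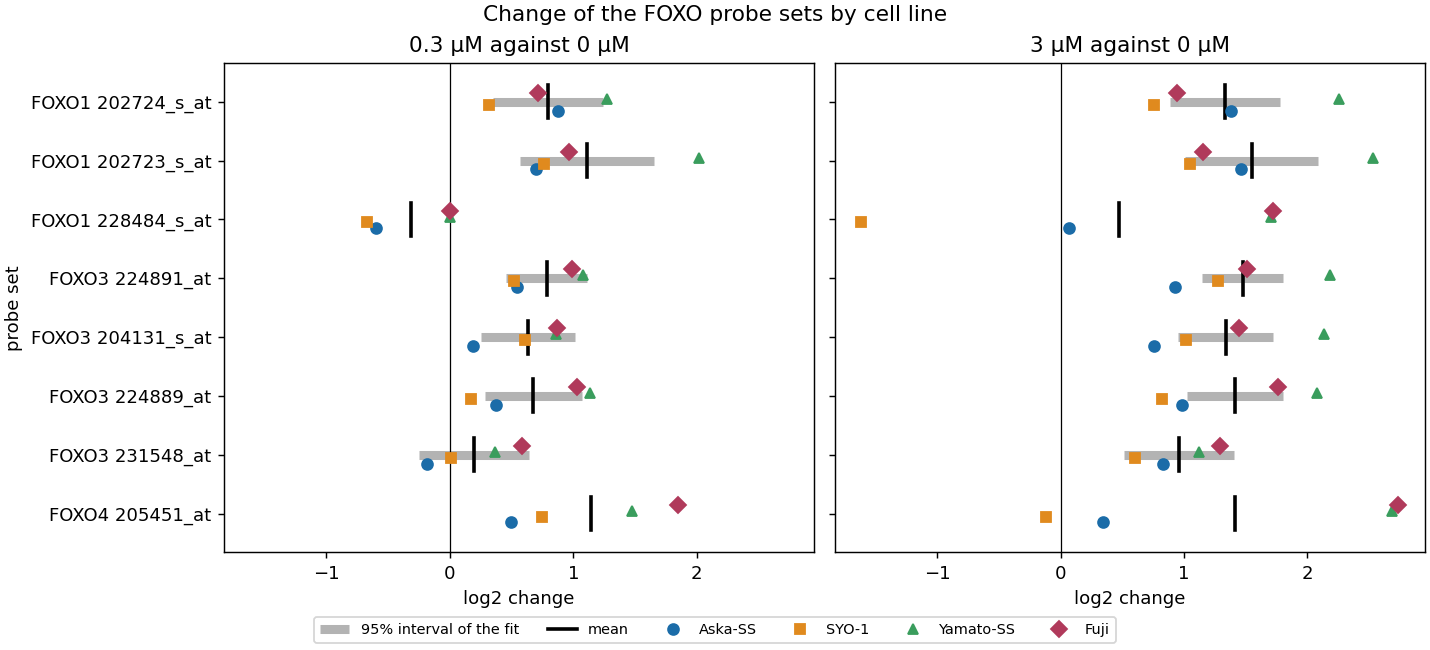
Log2 change of each probe set at 0.3 µM (left) and 3 µM (right) against 0 µM, with a point per cell line, a black bar at their mean and, for the 6 probe sets tested, the 95% interval of the fit in grey. At 3 µM all points of these 6 lie above 0, and Yamato-SS is the highest for 5 of them; 228484_s_at and 205451_at spread to both sides of 0.

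Yamato-SS had the largest log2 change at 3 against 0 µM on 5 of the 6 probe sets tested, from 2.08 to 2.53, and the lowest signal at 0 µM on all 6. Both statements rest on the same 0 µM array. SYO-1 had the smallest change on 4 of the 6, and Aska-SS on the other two. Without Yamato-SS, the fit still gave a rise of 1.24 for *FOXO3* 224891_at and of 1.03 for *FOXO1* 202724_s_at.

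The size of the change was set side by side between the 2 genes, although with 4 lines the exact test cannot pass 0.05. On their brightest probe sets, the log2 change of *FOXO1* minus that of *FOXO3* at 3 against 0 µM was -0.14 ± 0.49 (SD, n = 4 lines), higher in Aska-SS and Yamato-SS and lower in SYO-1 and Fuji (exact two-sided sign-flip permutation p = 0.625, with 0.125 the smallest p that 4 lines allow). Probe sets of 1 gene were compared in the same way, as 202723_s_at minus 202724_s_at for *FOXO1*, 0.21 ± 0.099 (-0.11 with the floor at the 40th percentile), and as the difference from 224891_at for *FOXO3*, -0.14 ± 0.10 for 204131_s_at, -0.06 ± 0.30 for 224889_at and -0.51 ± 0.44 for 231548_at (SD, n = 4). The difference was of 1 sign in 4 of 4 lines for 202723_s_at, 204131_s_at and 231548_at, each with an exact permutation p of 0.125 at the main floor. Over the 18 such comparisons at the 3 dose pairs, the lowest adjusted p was 0.45.

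The split of the rise into its dose steps was also compared, in a contrast added after the values had been seen. The first step (0.3 against 0 µM) minus the second (3 against 0.3 µM) was 0.67 (95% interval -0.26 to 1.61) on *FOXO1* 202723_s_at, 0.25 (-0.52 to 1.02) on *FOXO1* 202724_s_at, 0.09 (-0.48 to 0.66) on *FOXO3* 224891_at and -0.57 (-1.35 to 0.20) on *FOXO3* 231548_at. In limma, 0 of all 27306 probe sets passed for this difference (0%), and 1378 had an unadjusted p under 0.05. So a difference between the steps was not shown on any of these probe sets, although both *FOXO1* probe sets passed only at the first step and *FOXO3* 224891_at at both.

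The level of each gene between lines was compared in the same model, also after the values had been seen. Here the arrays of a line at the 3 doses, 1 array each, stood as its replicates. These p-values carry the spread left after line and dose were fitted, and not that between cultures of 1 line at 1 dose. For *FOXO1* 202724_s_at the order was Fuji (mean log2 10.08 over the 3 doses), Aska-SS (9.11), SYO-1 (8.07) and Yamato-SS (6.08), and every neighbouring pair passed. The log2 differences were -0.97 for Aska-SS minus Fuji (limma adjusted p = 0.00568), 1.04 for Aska-SS minus SYO-1 (limma adjusted p = 0.00284) and 1.996 for SYO-1 minus Yamato-SS (limma adjusted p = 1.9e-05). Of all probe sets, 40.8%, 49.2% and 46.4% differed in these pairs. On 202723_s_at, Aska-SS minus SYO-1 was 0.34 (95% interval -0.29 to 0.96, limma adjusted p = 0.355). For *FOXO3* 224891_at the order was Aska-SS (12.47), Fuji (12.39), SYO-1 (12.03) and Yamato-SS (11.60), and no neighbouring pair passed (limma adjusted p of 0.763, 0.119 and 0.0608 in that order), with 40.8% of all probe sets differing between SYO-1 and Fuji, while Aska-SS minus Yamato-SS was 0.87 (limma adjusted p = 0.00102, 55.7% of all probe sets differing). On the other 3 *FOXO3* probe sets Fuji was the highest line and Yamato-SS the lowest. On 204131_s_at the order was Fuji (11.43), SYO-1 (10.99), Aska-SS (10.82) and Yamato-SS (10.07), where Aska-SS minus Yamato-SS was 0.75 (limma adjusted p = 0.00729) and the other neighbours did not pass (limma adjusted p of 0.107 and 0.517). SYO-1 minus Yamato-SS (0.92, limma adjusted p = 0.00256) and Aska-SS minus Fuji (-0.61, limma adjusted p = 0.0304) passed on this probe set, unlike on 224891_at.

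Over the 12 arrays, after the mean of each cell line was taken out, *FOXO3* 224891_at followed 204131_s_at with r = 0.984, 224889_at with r = 0.980 and 231548_at with r = 0.884, and *FOXO1* 202724_s_at followed 202723_s_at with r = 0.969. Between genes, *FOXO1* 202724_s_at followed *FOXO3* 224891_at with r = 0.955, and *FOXO4* followed *FOXO3* 224891_at with r = 0.819. The points share the arrays and the dose order, so that any transcript that moves with dose correlates, and 228484_s_at reached 0.301 to 0.651 with the others.

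By the same measure, the 5 genes most like *FOXO3* among 12132 were *SSBP2* (r = 0.998), *TERF2IP* (0.995), *ULK2* (0.993), *GSTK1* (0.993) and *BCL2L11* (0.992). *ULK2* encodes a kinase that starts autophagy, *TERF2IP* a protein of telomere ends, and *BCL2L11* the BH3-only death protein BIM. Those most like *FOXO1* were *EIF3F*, a translation initiation subunit (0.996), *IFITM1*, an interferon-induced membrane protein (0.986), *ARMH4*, *N4BP2L2* and *SMIM14* (0.985 each). *EIF3F* followed the shape with a log2 change of only 0.49 at 3 against 0 µM, whereas *IFITM1* changed by 2.33, so likeness here is one of shape and not of size. Those most like *FOXO4* were *SCAF11* (0.974), *PSD3* (0.973), *CDC42BPA* (0.968), *TCF25* (0.963) and *SORCS1* (0.962). All of them were highest at 3 µM in Yamato-SS and Fuji within these lines, which follows from choosing genes by their likeness to *FOXO4*. *SORCS1* did not vary with dose in Aska-SS or SYO-1, so its r rests on Yamato-SS and Fuji. At 3 against 0 µM *SCAF11* (limma adjusted p = 0.0932) and *SORCS1* (limma adjusted p = 0.103) did not pass, while *PSD3*, *CDC42BPA* and *TCF25* did.

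**Figure D3:**
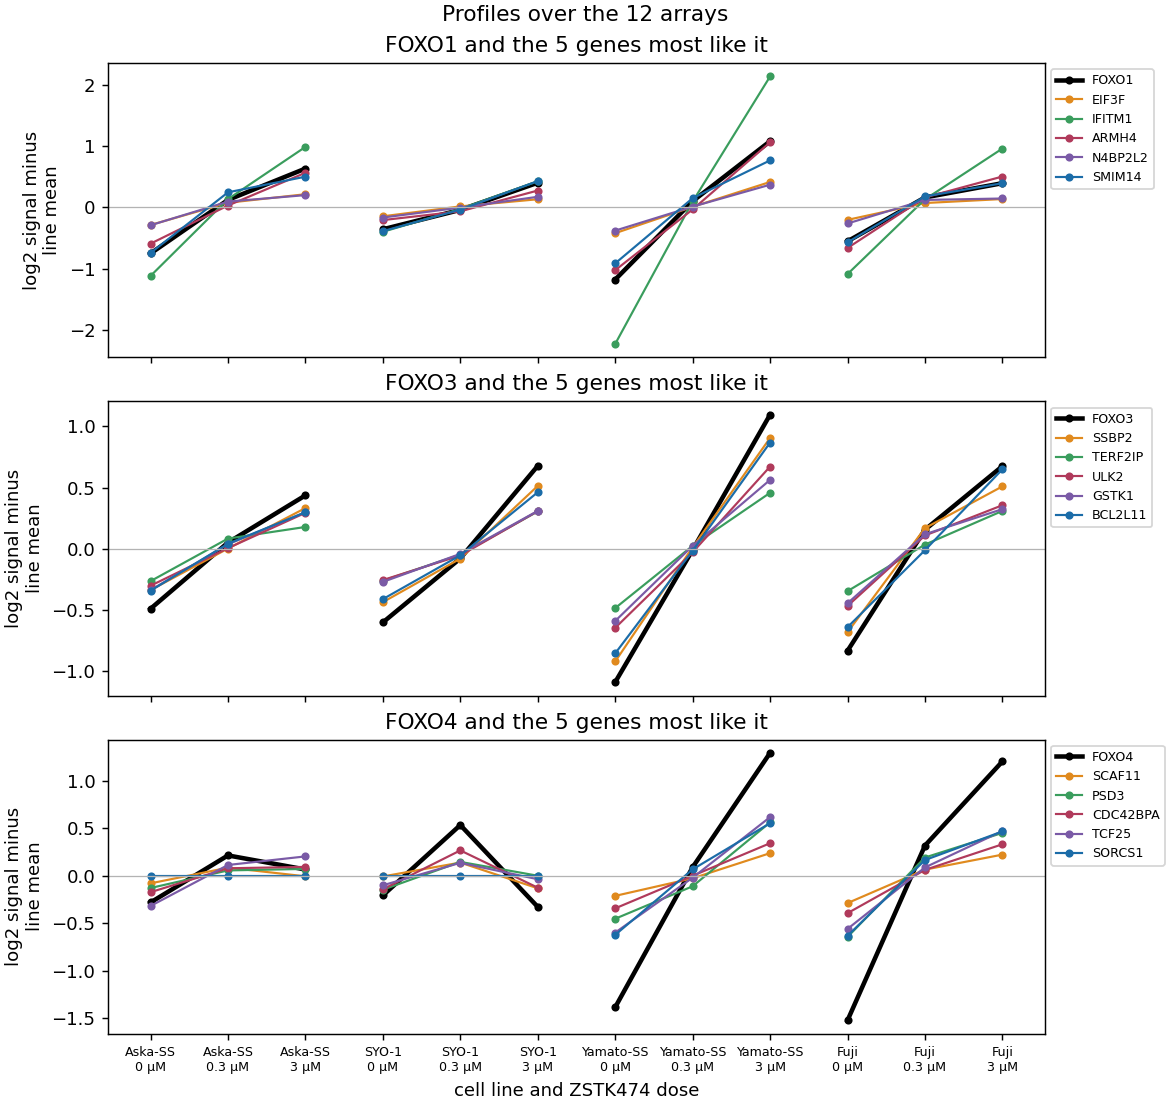
Log2 signal minus the mean of its cell line over the 12 arrays for the brightest probe set of each FOXO gene (black) and the 5 genes with the highest Pearson correlation to it. The *FOXO1* and *FOXO3* panels climb with dose in each line, and *FOXO4* climbs in Yamato-SS and Fuji but turns down after 0.3 µM in Aska-SS and SYO-1.

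Genes that FOXO factors are known to switch on were then counted, with the brightest probe set for each gene, against 12132 genes of which 22.5% rose and 21.0% fell at 3 against 0 µM, with a median log2 change of 0.01. Of 9 measured targets of cell cycle and death, 7 rose, 1 fell and 1 did not pass, with a median of 0.67. *BCL6*, a repressor, rose by 2.42 (limma adjusted p = 6.52e-06), *CDKN1B*, the cyclin-dependent kinase inhibitor p27, by 1.03 (limma adjusted p = 1.11e-05) and *BCL2L11* by 1.13 (limma adjusted p = 0.000124). By line, *BCL2L11* changed by 0.64 in Aska-SS, 1.72 in Yamato-SS, 0.87 in SYO-1 and 1.29 in Fuji, the same order of lines as *FOXO3* 224891_at. This order restates the likeness given above (r = 0.992), which came from the same arrays, and is no separate result. *GADD45A*, a DNA damage gene, fell by 0.45 (limma adjusted p = 0.00808); without Aska-SS 0 of the 9 fell and without Fuji 2 did. *CDKN1A*, the inhibitor p21, was at -0.36 (limma adjusted p = 0.179). Of the 12 listed, *TNFSF10* and *FASLG* lay below the filter and *BBC3* has no probe set of its own symbol alone.

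Of 8 measured targets of metabolism and feedback, 6 rose and 0 fell (0 also at an unadjusted p under 0.05 in limma), with a median of 0.92. *RICTOR*, a core subunit of mTORC2, rose by 0.94 (limma adjusted p = 8.62e-05), *TXNIP*, which restrains glucose uptake, by 3.22 (limma adjusted p = 0.000182) and *INSR*, the insulin receptor, by 2.06 (limma adjusted p = 0.00153). In Yamato-SS *TXNIP* changed by 5.40 and *INSR* by 4.05, against 1.63 to 2.93 and 1.17 to 1.82 in the other lines. *SESN1* was at 0.51 (limma adjusted p = 0.0744) and *TRIB1* at -0.01. *ERBB3*, *PDK4*, *PCK1*, *G6PC1* and *IGFBP1*, the last 3 of them liver targets, lay below the filter. Of 11 measured targets of stress defence and protein breakdown, 5 rose and 1 fell, with a median of 0.14. The risers were *SELENOP*, a selenium transport protein (2.91), *FBXO32*, the ubiquitin ligase atrogin-1 (2.49), *GABARAPL1* (0.87) and *ATG12* (0.35) of autophagy, and *PINK1* of mitochondrial quality control (0.80). *SELENOP*, *FBXO32* and *GABARAPL1* were higher in all 4 lines, while *PINK1* was lower in SYO-1 (-0.22) and *ATG12* in Yamato-SS (-0.04). *GABARAPL1* changed by 1.47 in Aska-SS and 1.61 in Fuji, but by 0.25 in SYO-1 and 0.16 in Yamato-SS. *PRDX3*, a mitochondrial peroxidase, fell by 0.32 (limma adjusted p = 0.00176), and *SOD2*, *CAT*, *MAP1LC3B*, *BNIP3* and *KLF2* did not pass, at -0.13 to 0.14. Without Aska-SS 3 of the 11 rose, and without Fuji 2 did.

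At 0.3 against 0 µM, where 3.88% of all genes rose, the targets that rose were 2 of 9, 2 of 8 and 1 of 11 of these lists, namely *BCL6* (1.27), *CDKN1B* (0.45), *RICTOR* (0.53), *TXNIP* (1.81) and *FBXO32* (1.58). Without Aska-SS, 1 probe set of all passed at this step, so that at least 4 of these 5 calls were lost. The 3 target lists share their 0 µM arrays with the FOXO probe sets, and their genes were picked for what is known of FOXO factors in other cells, with earlier results of these data known.

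**Figure D4:**
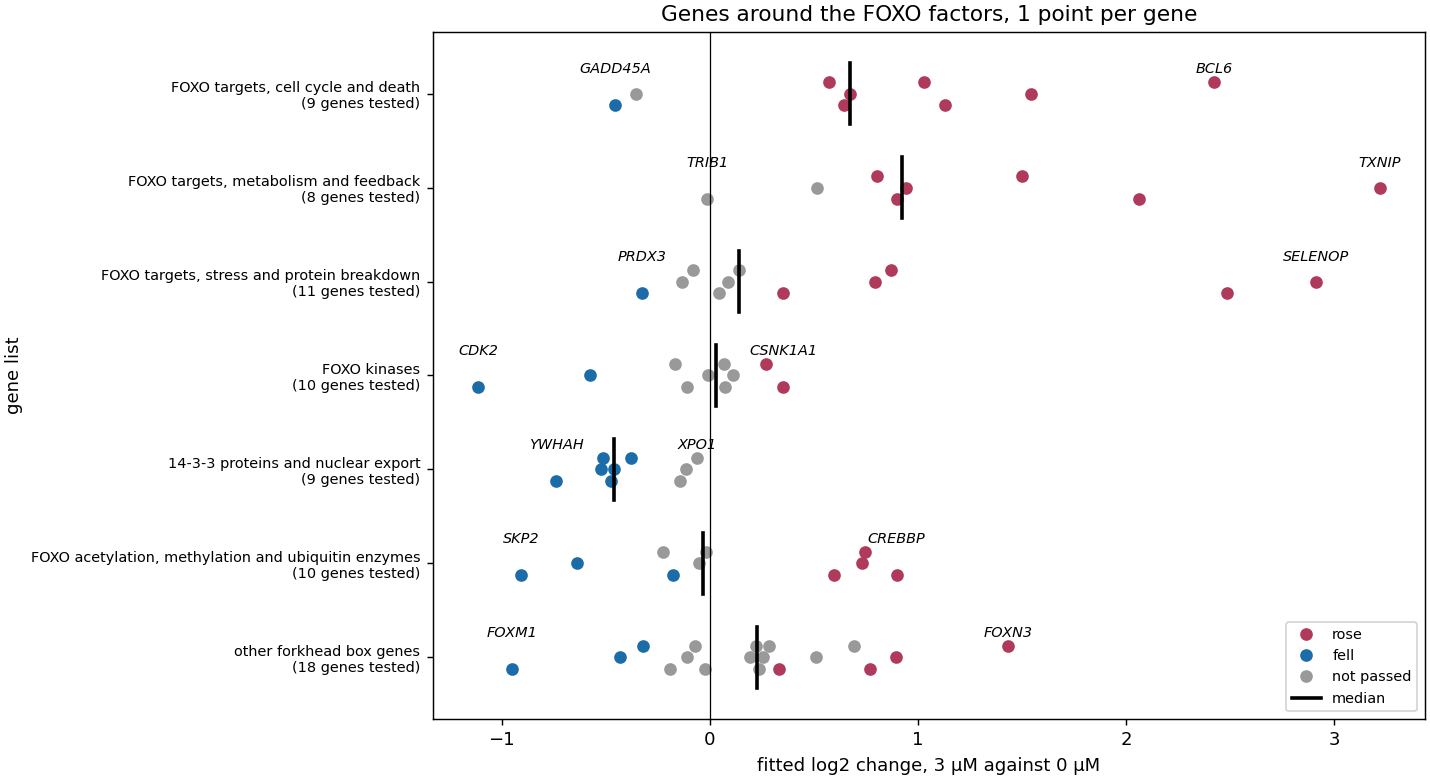
Fitted log2 change at 3 against 0 µM of the measured genes of 7 lists, 1 point per gene, coloured by whether it rose, fell or did not pass, with a black bar at each median and the highest and lowest gene of each row named. The medians run from 0.92 for metabolism and feedback targets to -0.46 for 14-3-3 proteins and nuclear export.

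Genes whose products act on FOXO proteins were counted in the same way. Of 10 measured kinases that phosphorylate them, 2 rose and 2 fell, where 22.5% of all genes rose and 21.0% fell, so these counts are near the background. Among them, *CDK2* fell by 1.11 (limma adjusted p = 7.84e-05) and *AKT1*, an Akt gene, fell by 0.57 (limma adjusted p = 0.00271), while *CSNK1A1* rose by 0.35 and *DYRK1A* by 0.27. The remaining 6 did not pass. Of 9 genes of 14-3-3 proteins and nuclear export, 6 fell and 0 rose (0 also at an unadjusted p under 0.05 in limma), with a median of -0.46 where 21.0% of all genes fell. *YWHAQ* fell by 0.38, *YWHAB* by 0.51 and *YWHAG* by 0.52 (limma adjusted p of 0.000122 to 0.000196), all 3 of them 14-3-3 genes, while *YWHAE*, *YWHAZ* and the exportin *XPO1* did not pass, at -0.14 to -0.06. When all probe sets of a gene were averaged, 1 of the 9 rose and 7 fell.

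Of 10 enzymes that acetylate, deacetylate, methylate or ubiquitinate FOXO proteins, 4 rose and 3 fell, with a median of -0.03, where 22.5% of all genes rose and 21.0% fell. The acetyltransferases *CREBBP* (0.90, limma adjusted p = 1.47e-05) and *EP300* (0.73) and the deacetylases *SIRT1* (0.75) and *SIRT2* (0.59) rose. *SKP2*, a ubiquitin ligase subunit that marks FOXO1 for breakdown, fell by 0.91 (limma adjusted p = 3.57e-05), the arginine methyltransferase *PRMT1* fell by 0.64, and the ligase *STUB1* fell by 0.18 (limma adjusted p = 0.0451). *SIRT3*, *MDM2* and *USP7* did not pass, at -0.23 to -0.02.

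Of 36 other forkhead genes with a probe set of their own, 18 passed the filter, of which 4 rose, 3 fell and 11 did not pass, with a median of 0.23. These counts are near the background of 22.5% of all genes that rose and 21.0% that fell. *FOXN3*, a repressor, rose by 1.43 (limma adjusted p = 2.42e-05), *FOXP1* by 0.89, *FOXK1* by 0.77 and *FOXJ3* by 0.33. *FOXM1*, which drives genes of mitosis, fell by 0.95 (limma adjusted p = 0.00172), *FOXD1* by 0.43 and *FOXK2* by 0.32. Without Aska-SS, and also without Yamato-SS, 1 of the 18 fell. *FOXO6*, the fourth human FOXO gene, was chosen for naming after its value was seen and was at -0.02 (limma adjusted p = 0.945). Its lines moved apart: only SYO-1 was higher at 3 µM (by 0.65), and the lowest change was -0.40, that of Aska-SS. The changes of the tested *FOXO1* and *FOXO3* probe sets lay between 0.96 and 1.55. The untested *FOXO1* 228484_s_at had a mean of 0.47 ± 1.59 (SD, n = 4). A difference between *FOXO6* and these genes was not tested.

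The median deposited signal of the 12 arrays lay between 60.1 and 85.3, and it was higher at each dose than at the one below in Aska-SS, SYO-1 and Yamato-SS. Quantile normalization takes this out, and without it the change at 3 against 0 µM was 1.41 for *FOXO3* 224891_at and 1.47 for *FOXO1* 202724_s_at. Of 7 SS markers, 6 have a probe set of their own and all 6 passed the filter, with *TLE1* at 7260 to 24076. Their summed signal was 58050 to 74854 at 3 µM and 51796 to 69047 at 0 µM, a large part of it from *VIM*, at 30977 to 36374. Of the markers of other cells, 0 of 6 leukocyte genes and 0 of 5 muscle genes passed the filter, and 1 of 5 endothelial genes did, with summed signals of at most 508 on any array. As a sign of RNA integrity, the log2 signal at the 3′ end of beta actin minus that at its 5′ end was taken, which at 3 against 0 µM changed by 0.55 in Fuji, 0.19 in Aska-SS, 0.17 in Yamato-SS and 0.02 in SYO-1. The same measure for GAPDH changed by 0.066 in Fuji, -0.14 in Aska-SS, 0.13 in Yamato-SS and 0.075 in SYO-1. The part of this in the FOXO changes was not tested beyond leaving Fuji out. Without Fuji, the change at 3 against 0 µM was 1.46 for both *FOXO3* 224891_at and *FOXO1* 202724_s_at, and the mean for *FOXO4* was 0.97.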

How the data were processed

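The authors deposited linear MAS5 signal intensities, and each array has a 2% trimmed mean of 500.1. The sources used here give no MAS5 version. The study's methods name quantile normalization, so the intensities of the 12 arrays were quantile-normalized here. Values under the 20th percentile (12.1) were raised to it and log2 was taken, so that a fold change of a dim probe set is understated. The 62 control probe sets were left out, and 27306 of 54675 probe sets had a mean log2 value above the median and were tested.

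Gene symbols came from the platform annotation, with 41097 probe sets of 1 symbol, 1801 of several and 11777 unnamed, and 0 symbols were updated through RefSeq. The brightest probe set with 1 symbol stood for a gene in the lists (12132 genes). The tests used limma 3.58.1 (R 4.3.3), with cell line as a block, dose as a factor, a variance trend and Benjamini-Hochberg adjustment over all probe sets tested (threshold 0.05). The fit was run on simulated data with independent noise and a shift shared by all lines. Responses that differ between lines were not simulated.

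Replicate numbers are the cell lines, so arrays are paired by line. After the mean of each dose was taken out, arrays of a line correlated at r = 0.788 to 0.907 and arrays of different lines at -0.449 to -0.103. Taking out the dose means by itself pushes the values between lines below 0, so only those within a line bear on the pairing. Nothing says whether the cultures of a line were set up separately, and spread may be partly technical.

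The genes and lists were chosen with earlier results of these data known. Named are all FOXO probe sets, the 3 genes with the lowest adjusted p in each list, every member of a count of 5 or fewer, and the 5 genes most like each FOXO gene. Alternatives changed the normalization, floor, filter, block, doses fitted, variance trend, array weights, probe set per gene and the cell lines kept. Promoter windows are RefSeq's (GRCh38.p14), used for names and sequence only.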

Additional observations from a re-analysis of the deposited data

Results flagged for a closer look

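A group here is the 4 cell lines at 1 dose or in 1 comparison. Chance sets about 1 in 20 such groups apart, and 48 were examined. On *FOXO3* 204131_s_at, Yamato-SS stood far from the other lines at 0 µM, with a log2 level of 9.08. On *FOXO3* 231548_at, Fuji stood far from the others at 0.3 µM, with a log2 level of 7.28.

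In 5 comparisons, lines moved in opposite directions, and the difference between lines was not tested. On *FOXO4* 205451_at, SYO-1 changed by -0.12 at 3 against 0 µM, while the other lines were higher at 3 µM. On *FOXO1* 228484_s_at, SYO-1 changed by -1.61 at 3 against 0 µM, where its signal at 3 µM was 2.23, under the floor. At 3 against 0.3 µM, SYO-1 changed by -0.95 on that probe set, and on *FOXO4* 205451_at SYO-1 changed by -0.86 and Aska-SS by -0.15, while the other lines were higher at 3 µM. On *FOXO3* 231548_at, Aska-SS changed by -0.19 at 0.3 against 0 µM.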

How the results depend on the processing

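For the 6 FOXO probe sets tested, 78 alternative values were computed per comparison and none reversed. At 3 against 0 µM, 74 of 78 stayed past the threshold. The 4 that did not all came from leaving out the block by cell line, which ignores the pairing. At 0.3 against 0 µM, 27 values lost the threshold and 3 gained it, while at 3 against 0.3 µM 24 lost it and 1 gained it, and the cause was not tested.

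Without the block that pairs arrays by cell line, 582 probe sets passed at 3 against 0 µM, against 10746 with it, and 0 passed at 0.3 against 0 µM and at 3 against 0.3 µM (782 and 1281 at an unadjusted p under 0.05 in limma). The changes of *FOXO1* 202724_s_at (1.34, and 0.79 at 0.3 µM) then had adjusted p of 0.624 and 0.99997, and those of *FOXO3* 224891_at at the 2 steps (0.78 and 0.69) had 0.99997 each. *FOXO3* 224891_at at 3 against 0 µM kept an adjusted p of 0.0355. Without the block, the list genes that rose at 3 against 0 µM were 1 of cell cycle and death, 0 of metabolism, 0 of stress, 0 of kinases, 1 of the modifying enzymes and 1 of the forkhead genes, and those that fell were 0, 0 and 0 for cell cycle, stress and kinases, 0 for 14-3-3 and export, 1 for the enzymes and 0 for forkhead genes.

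With 1 probe set per gene, 5304, 961 and 1862 genes passed at 3 against 0, 0.3 against 0 and 3 against 0.3 µM, for 10746, 1453 and 3143 probe sets in the fit reported. With no filter, 9 and 976 passed at the 2 steps, and *FOXO1* 202724_s_at (0.79, adjusted p = 0.168) and *FOXO3* 224891_at (0.78 and 0.69, adjusted p of 0.121 and 0.108) did not. With no variance trend, 0 (6081 at an unadjusted p under 0.05) and 1436 passed, with adjusted p of 0.0996 for *FOXO1* and 0.0822 and 0.0616 for *FOXO3*. With array weights 3519, and with the arrays of the 2 doses alone 2404, passed at 0.3 against 0 µM; the latter setting gave *FOXO1* 202724_s_at at 3 against 0.3 µM (0.54) an adjusted p of 0.0340.

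Leaving out 1 cell line (in the order Aska-SS, SYO-1, Yamato-SS, Fuji) gave 1, 398, 493 and 32 probe sets at 0.3 against 0 µM, and 870, 914, 1609 and 2367 at 3 against 0.3 µM. *FOXO1* 202724_s_at at 0.3 against 0 µM then changed by 0.77, 0.95, 0.63 and 0.82 and passed in no case, and *FOXO3* 224891_at by 0.86, 0.87, 0.68 and 0.71 and passed only without Yamato-SS. At 3 against 0.3 µM *FOXO3* 224891_at changed by 0.55 to 0.79 and lost the threshold only without SYO-1 (0.67, adjusted p = 0.0796). Genes that fell among cell cycle targets were 0 (without Aska-SS) to 2 (without Fuji), those that rose among stress targets 2 (without Fuji) to 5 and forkhead genes that fell 1 (without Aska-SS or Yamato-SS) to 3. Without quantile normalization 1 kinase gene rose, and with probe sets averaged per gene 1 kinase and 1 14-3-3 or export gene rose and 0 stress targets fell. A floor at the 40th percentile gave *FOXO4* 0.77 at 3 and 0.50 at 0.3 against 0 µM, for 1.41 and 1.14, and 202723_s_at minus 202724_s_at -0.11 at 3 against 0 µM, for 0.21. Signal over background limits 228484_s_at, with 5 values under the floor.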
